A study of Rattus norvegicus with 6 samples.

Results

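The CC chemokine ligands examined here were 10 genes, Ccl2, Ccl3, Ccl4, Ccl5, Ccl6, Ccl7, Ccl9, Ccl19, Ccl21 and Ccl22, each found by its symbol as 1 row among the 30957 genes of the expression table. CC chemokines are small secreted proteins with a pair of adjacent cysteines near the amino terminus, and they act through G protein-coupled receptors that steer leukocytes along a gradient. In the spinal cord they can be made by microglia, astrocytes, neurons and immune cells that enter from the blood, and Ccl2 is among the chemokines most studied in chronic pain. Ccl19 and Ccl21 belong to the homeostatic group that guides T cells and dendritic cells in lymphoid tissue, whereas most of the others are known as inflammatory chemokines.

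RNA of the lumbar enlargement on the tumor side, freed of meninges, was sequenced on day 14 from adult female Wistar rats. BCP (bone cancer pain) rats carried living Walker 256 cells, a rat mammary carcinoma line that is syngeneic to Wistar rats, in the left tibia. Sham-operated rats had been injected with the same line after heat killing, so both groups were exposed to surgery and to tumor material. Each group had 3 libraries, and the sources used here do not give the number of rats behind each library, so the p-values measure the spread between these libraries. The libraries held 11779485 to 15004290 counts on genes. They came from bulk tissue, in which more cells of a type and more RNA per cell cannot be told apart.

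The sham libraries held few counts of these ligands, and the BCP libraries held 6 of them at levels that could be tested. Ccl2, Ccl3, Ccl4, Ccl5, Ccl6 and Ccl7 were higher in every BCP library than in every sham library. Ccl9 showed the same order at a few counts per library, Ccl19 and Ccl22 overlapped between the groups, and Ccl21 had no count in any library. Over all 10 ligands the normalized counts (CPM, counts scaled to library size with TMM factors) summed to between 0.945 and 2.16 in the sham libraries and to between 24.9 and 28.8 in the BCP libraries.

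**Figure D1:**
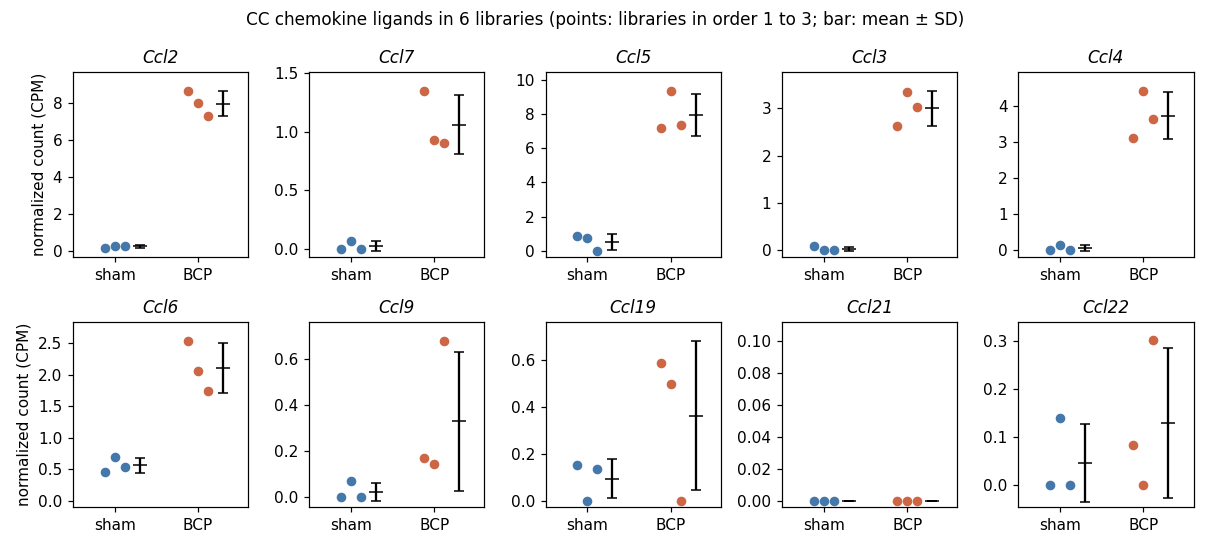
Normalized counts (CPM) of the 10 CC chemokine ligands on the y axis of each panel, with 1 point per library for the 3 sham and the 3 BCP libraries on the x axis and a bar for the mean ± SD of each group; each panel has its own linear scale. Ccl2 sits at 0.234 ± 0.0707 CPM in the sham libraries and at 7.96 ± 0.677 CPM in the BCP libraries, while the groups overlap for Ccl19 and Ccl22 and Ccl21 is at 0.

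Most of the ligands lie in 2 tandem groups on chromosome 10, which have long been read as products of repeated gene duplication. The first holds Ccl2 and Ccl7 within 12.963 kb, and the second holds Ccl5, Ccl9, Ccl6, Ccl3 and Ccl4 within 146.556 kb, 1314.82 kb further along. Ccl19 and Ccl21 lie within 17.757 kb of each other on chromosome 5, and Ccl22 lies alone on chromosome 19. These positions are those of the Rnor_6.0 build used in the deposited table.

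Promoter windows, from 250 bases before to 50 bases after the annotated start, were matched in RefSeq (GRCr8 build) by symbol for 6 of the 10 ligands, Ccl6, Ccl7, Ccl9, Ccl19, Ccl21 and Ccl22. The 250 upstream bases of 3 of them are shown, those of Ccl7 and Ccl6 because both ligands were called higher in BCP rats, and those of Ccl9 because it is the neighbor of Ccl6 and had few counts. Capitals mark letters that matched a searched motif. The Ccl7 sequence is GRCr8 chr10:67513845-67514094 on the plus strand, the Ccl6 sequence is chr10:68883367-68883616 on the minus strand, and the Ccl9 sequence is chr10:68868878-68869127 on the minus strand.
Ccl7: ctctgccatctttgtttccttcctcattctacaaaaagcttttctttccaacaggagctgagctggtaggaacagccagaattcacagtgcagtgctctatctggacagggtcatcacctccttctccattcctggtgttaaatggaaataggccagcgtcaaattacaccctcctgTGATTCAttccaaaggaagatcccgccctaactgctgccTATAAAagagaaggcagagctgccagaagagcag
Ccl6: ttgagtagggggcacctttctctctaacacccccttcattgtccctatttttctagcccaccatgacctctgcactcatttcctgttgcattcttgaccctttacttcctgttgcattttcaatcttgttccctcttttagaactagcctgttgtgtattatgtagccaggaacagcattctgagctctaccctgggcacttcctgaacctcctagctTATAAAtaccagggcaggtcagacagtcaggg
Ccl9: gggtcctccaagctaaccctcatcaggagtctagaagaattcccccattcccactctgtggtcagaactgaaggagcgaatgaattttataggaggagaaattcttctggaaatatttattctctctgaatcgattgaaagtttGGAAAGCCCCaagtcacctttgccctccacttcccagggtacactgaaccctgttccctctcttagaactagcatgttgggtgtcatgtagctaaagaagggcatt

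Ccl6 and Ccl9 shared a stretch of promoter sequence that no other pair among the 6 windows approached in alignment score. In the best local alignment of the full windows, bases -124 to -22 of Ccl6 paired with bases -55 to 50 of Ccl9, and 84 of 106 aligned columns (79.2%) were identical. The pair with the next highest score, Ccl19 and Ccl21, had 26 identical columns of 33. Both strands of the windows were searched for a kappa-B motif (GGG, 2 bases of any kind, TT, any base, CC), an AP-1 motif (TGANTCA), a GAS motif (TTCNNNGAA) and an ISRE motif (GAAA, 2 bases of any kind, GAAA), and the strand of the gene was searched for a TATA motif (TATAAA). The TATA motif began at position -34 in Ccl7 and -32 in Ccl6, where position -1 is the base before the annotated start. In Ccl9 it began at position 40, after the annotated start and in the stretch aligned to Ccl6. The AP-1 motif was found in Ccl7 from position -73, the GAS motif in Ccl7 from position 32, the kappa-B motif in Ccl9 and Ccl19, and the ISRE motif in Ccl19 alone of the 6. Of 33469 promoters of this length, 8.80% held the TATA motif, 7.33% the AP-1 motif, 8.87% the GAS motif, 5.00% the kappa-B motif and 3.92% the ISRE motif. Ccl21 and Ccl22 held none of the 5 motifs in these windows, and no matches overlapped.

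Differential expression was read from a quasi-likelihood fit in edgeR to every gene that passed edgeR's filter on low counts, and a gene was called when its p-value adjusted over all 14908 tested genes was under 0.05 and its change was more than 2-fold. Of those genes 6.35% were called higher in BCP rats and 0.107% were called lower. Of the ligands 6 were tested, and all 6 were called higher. None of the 6 had 3 sham libraries at the minimum of the filter, and each had 3 BCP libraries there, so they entered the test through the group in which they were high. Among the 762 tested genes with fewer than 3 sham libraries at that minimum, 41.6% were called higher in BCP rats. Among the 20645 genes with any count, 17.4% had every BCP library above every sham library, and 7 of the 10 ligands had that order. Among the tested genes alone that share was 21.7%, and in 19.8% every BCP library lay below every sham library.

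Ccl2 (ENSRNOG00000007159, Rnor_6.0 chr10:69412017-69413870), a monocyte attractant that signals through Ccr2, had 2, 4 and 4 counts in sham libraries 1, 2 and 3 and 102, 112 and 96 counts in BCP libraries 1, 2 and 3, the order in which counts are given for every gene. The BCP libraries lay close together and far above the sham libraries. The ratio of summed counts per normalized library size, BCP to sham, was 33.5, with a 95% counting interval of 18.0 to 70.6 (exact, counting error only). The log2 fold change (log2FC, BCP minus sham) fitted by edgeR was 5.02 ± 0.31 (SE), with an adjusted p of 2.11e-10.

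Ccl7 (ENSRNOG00000000239, chr10:69423086-69424979), which attracts monocytes through Ccr2 and other receptors, had 0, 1 and 0 sham counts and 16, 13 and 12 BCP counts. Its only sham count lay in sham library 2, so the ratio of 44.4 had a wide counting interval, from 7.53 to 1795. Its log2FC by edgeR was 5.01 ± 0.79 (SE, adjusted p = 6.08e-05). Without sham library 2 the fitted log2FC was 6.83, with both remaining sham libraries at 0. Ccl2 and Ccl7 are neighbors whose log2FC differed by less than either SE, but Ccl2 was the more abundant, with 9.66 ± 0.754 FPKM (fragments scaled to gene length and library size) against 1.27 ± 0.288 FPKM in the BCP libraries (SD, n = 3).

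Ccl3 and Ccl4, the macrophage inflammatory proteins, attract monocytes and T cells, and Ccl3 is a ligand of Ccr1. Ccl3 (ENSRNOG00000011205, chr10:70869513-70871066) had 1, 0 and 0 sham counts and 31, 47 and 40 BCP counts, a ratio of 128 with a counting interval of 22.5 to 5086. Its log2FC by edgeR was 6.52 ± 0.60 (SE, adjusted p = 6.79e-08), and 8.36 without sham library 1, which held its only sham count. The fitted difference of Ccl3 therefore rested on a single sham count. Another row of the table, Rn60_10_0706.2, overlaps the Ccl3 span by 779 bases and had 1 count in BCP library 2 and none elsewhere.

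Ccl4 (ENSRNOG00000011406, chr10:70884531-70886355) had 0, 2 and 0 sham counts and 37, 62 and 48 BCP counts. As with Ccl7, sham library 2 held every sham count, and the ratio was 79.5 with a counting interval of 21.6 to 663. Its log2FC by edgeR was 6.05 ± 0.56 (SE, adjusted p = 5.98e-08), and 8.65 without sham library 2. The counting intervals of Ccl2, Ccl3, Ccl4 and Ccl7 overlapped, so their changes could not be ordered at this depth.

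Ccl5 (ENSRNOG00000010906, chr10:70739800-70744315), which T cells and natural killer cells are known to secrete and which binds Ccr1 and Ccr3, had 11, 11 and 0 sham counts and 85, 131 and 97 BCP counts. It was the only ligand with more than 10 counts in any sham library, and sham library 3 stood apart from the other sham libraries by having none. Its ratio was 15.4, with a counting interval of 9.99 to 24.9, and its log2FC by edgeR was 3.91 ± 0.48 (SE, adjusted p = 0.000241). Without sham library 3 the log2FC was 3.30 ± 0.29 (SE, edgeR, adjusted p = 3.13e-08).

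Ccl6 (ENSRNOG00000030021, chr10:70797124-70802782), a chemokine of rodents that attracts macrophages, was the ligand most evenly present in sham rats, with 6, 10 and 8 counts, and it had 30, 29 and 23 counts in the BCP libraries. Its ratio of 3.70 had a counting interval of 2.32 to 6.09, which did not overlap the interval of Ccl2, Ccl3, Ccl4, Ccl5 or Ccl7. The fitted log2FC was 1.88 ± 0.36 (SE, edgeR, adjusted p = 0.000457). In edgeR's test against a change of 2-fold rather than against no change, Ccl6 was no longer called (adjusted p = 0.0788), whereas the other 5 tested ligands were.

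**Figure D2:**
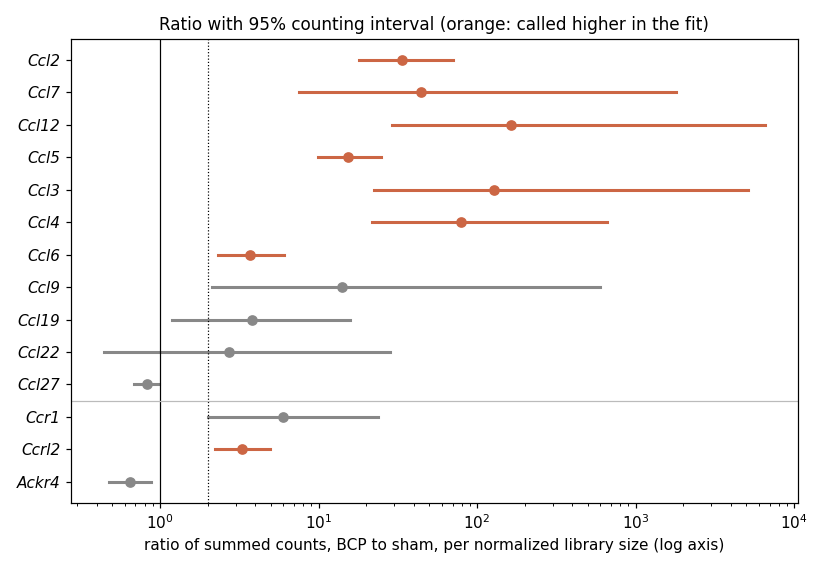
Ratio of summed counts per normalized library size, BCP to sham, on a logarithmic x axis for ligands (upper block) and receptors (lower block); points are ratios, lines are 95% counting intervals, orange marks genes called higher by edgeR, and the dotted line marks 2-fold. The interval of Ccl6 (2.32 to 6.09) lies below those of the 5 other called members, and among the plotted genes the widest intervals belong to those with 1 or 2 sham counts.

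Ccl9, Ccl19 and Ccl22 had counts but did not pass the filter, so they were compared by an exact permutation test, two-sided, which cannot go below 0.1 with 3 libraries against 3. Ccl9 (ENSRNOG00000028548, chr10:70783424-70788309), another chemokine of rodents and a ligand of Ccr1, had 0, 1 and 0 sham counts and 2, 2 and 9 BCP counts. All BCP libraries lay above the sham libraries, by a small margin in BCP libraries 1 and 2 (ratio 14.1, counting interval 2.11 to 598, exact permutation p = 0.1). Without the filter edgeR gave Ccl9 a log2FC of 3.38 ± 1.21 (SE) and an adjusted p of 0.0463, and it was then called.

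Ccl19 (ENSRNOG00000015668, chr5:58181026-58183017), a ligand of Ccr7, had 2, 0 and 2 sham counts and 7, 7 and 0 BCP counts. BCP library 3 was thus at or below every sham library, although the ratio was 3.79 with a counting interval of 1.19 to 15.8 (exact permutation p = 0.4). Ccl22 (ENSRNOG00000016535, chr19:10674189-10681145), a ligand of Ccr4, had 0, 2 and 0 counts against 1, 0 and 4 counts (ratio 2.71, counting interval 0.443 to 28.4, exact permutation p = 0.7). A difference in Ccl19 or Ccl22 was not detectable at this depth.

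Ccl21 (ENSRNOG00000034290, chr5:58197680-58198782), the other ligand of Ccr7, had 0 counts in all 6 libraries. A count of 0 allows up to 3 counts, which is 0.0369 CPM over all libraries together and between 0.203 and 0.253 CPM in a single library.

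Levels of different ligands were compared per length, in the FPKM that the authors calculated. In the BCP libraries Ccl5 was highest with 14.8 ± 2.31 FPKM, followed by Ccl2 with 9.66 ± 0.754, Ccl4 with 5.99 ± 1.09, Ccl3 with 4.02 ± 0.519 and Ccl6 with 1.56 ± 0.282 FPKM (SD, n = 3). The ranges of neighbors in this order did not overlap down to Ccl6, and Ccl6 and Ccl7 overlapped. Below Ccl7, which was above Ccl19 in all 3 BCP libraries, the levels of Ccl19, Ccl9, Ccl22 and Ccl21 (0.482, 0.261, 0.0752 and 0 FPKM on average) overlapped from each to the next.

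The makeup of the ligand pool differed between the groups. Ccl2, Ccl3, Ccl4 and Ccl5 together made up 87.9%, 91.9% and 91.3% of the summed FPKM in BCP libraries 1, 2 and 3, and 77.4%, 73.1% and 36.2% in sham libraries 1, 2 and 3. Ccl6 made up 5.08%, 3.63% and 3.62% of the sum in the BCP libraries and 14.1%, 18.9% and 44.0% in the sham libraries. The sums themselves were 36.5, 42.3 and 35.6 FPKM in the BCP libraries and 2.31, 2.66 and 0.882 FPKM in the sham libraries, and the shares in the sham libraries rest on only 22, 31 and 14 counts.

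**Figure D3:**
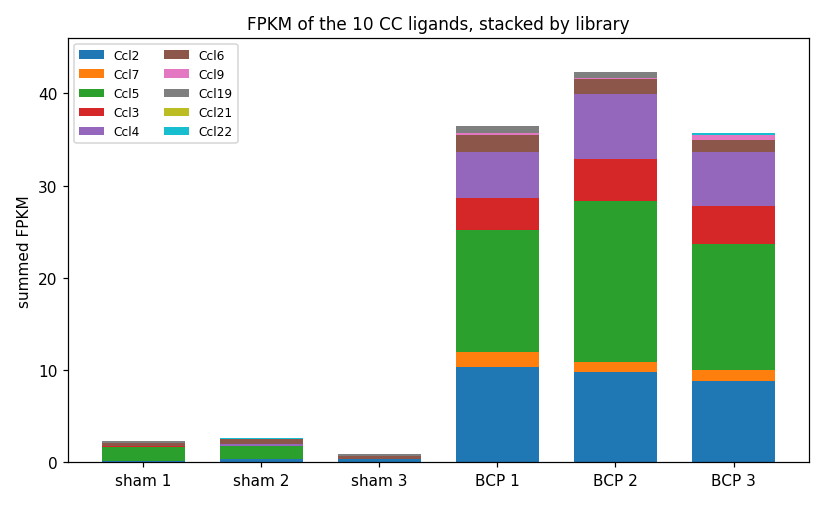
Summed FPKM of the 10 CC chemokine ligands on a linear y axis, stacked by ligand, with 1 bar for each of the 3 sham and the 3 BCP libraries. The bars reach 36.5, 42.3 and 35.6 FPKM in the BCP libraries, mostly from Ccl5, Ccl2, Ccl4 and Ccl3, and stay at or under 2.66 FPKM in the sham libraries.

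Within the BCP group the spread of the tested ligands is given beside that of counting alone, although 3 libraries cannot separate a further spread between rats from it. The coefficient of variation of the normalized counts was 8.51% for Ccl2, 12.3% for Ccl3, 18.9% for Ccl6 and 23.6% for Ccl7, against 9.84%, 15.9%, 19.1% and 27.1% from counting error at their mean counts. Ccl4 (17.6% against 14.3%) and Ccl5 (15.2% against 9.79%) had higher values than counting alone, and both were highest in BCP library 2, as was Ccl3. Ccl2, Ccl6 and Ccl7 were highest in BCP library 1.

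The libraries fall into 2 groups, so correlations over all 6 libraries mainly reflect the difference between sham and BCP rats and are given as a description. Pearson's r between pairs of the 6 tested ligands, on log2 CPM, ranged from 0.890 for Ccl5 with Ccl6 to 0.994 for Ccl6 with Ccl7. The 3 genes most like Ccl5, the ligand highest in FPKM, were Psmb8 (r = 0.998), an immunoproteasome subunit, Ncapg (r = 0.997), a condensin subunit, and RT1-CE4 (r = 0.997), a gene of the rat major histocompatibility complex. Those most like Ccl2 were Cd74, Tfec and Tnnt1 (r = 0.999 each), of which Cd74 encodes the invariant chain of class II molecules. Those most like Ccl4 were Vcp, Uggt1 and Tnfrsf13c (r = 0.999 each), although the fitted log2FC of Vcp was only 0.17 and that of Uggt1 was 0.34. An r above 0.95 was shared by 512 of 14907 genes for Ccl5, 877 for Ccl2 and 983 for Ccl4.

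Other CC ligands were taken from a list of 12, of which 10 had a row in the table and 2 could be tested. Ccl12, a Ccr2 ligand that lies in the group of Ccl2 and Ccl7, had 1, 0 and 0 sham counts and 52, 66 and 34 BCP counts. Its log2FC by edgeR was 6.89 ± 0.62 (SE, adjusted p = 4.67e-08), and the ratio was 164 with a counting interval of 29.1 to 6539. Ccl27, a skin chemokine that binds Ccr10 and lies beside Ccl19, had 94, 102 and 94 counts against 69, 74 and 78 counts. All BCP libraries were below the sham libraries for Ccl27, but its log2FC of -0.28 ± 0.17 was not called (SE, edgeR, adjusted p = 0.249).

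Among the receptors of these ligands, 13 of 14 listed genes were found, 3 were tested and 2 were called higher in BCP rats. Over all tested genes 6.35% were called higher. Ccrl2, an atypical receptor that does not signal through G proteins, had 13, 18 and 4 counts against 41, 36 and 29 counts, with a log2FC of 1.70 ± 0.39 (SE, edgeR, adjusted p = 0.00243). With 4 counts, sham library 3 was below the minimum of the filter for Ccrl2. Ccrl2 thus belongs to the class of tested genes of which 41.6% were called higher, so its call is no support. Ackr4, a scavenger of Ccl19 and Ccl21, had 38, 32 and 49 counts against 19, 23 and 29 counts, lower in every BCP library but not called (log2FC -0.63 ± 0.28 SE, edgeR, adjusted p = 0.0993). Its span overlaps another row of the table, Acad11, by 4659 bases.

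The remaining receptors had too few counts for the fit. Ccr1, a receptor of Ccl3, Ccl5, Ccl6, Ccl7 and Ccl9, had 1, 0 and 3 sham counts and 4, 13 and 5 BCP counts, with every BCP library above the sham libraries (ratio 5.95, counting interval 2.02 to 23.8, exact permutation p = 0.1). Ccr2, the main receptor of Ccl2, Ccl7 and Ccl12, had 1 count in each BCP library and none in the sham libraries, and its span overlaps another row of the table by 146 bases. Ccr4, the receptor of Ccl22, had 0 counts in all libraries. Ccr7, the receptor of Ccl19 and Ccl21, had 2 counts in BCP library 3 and none elsewhere.

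**Figure D4:**
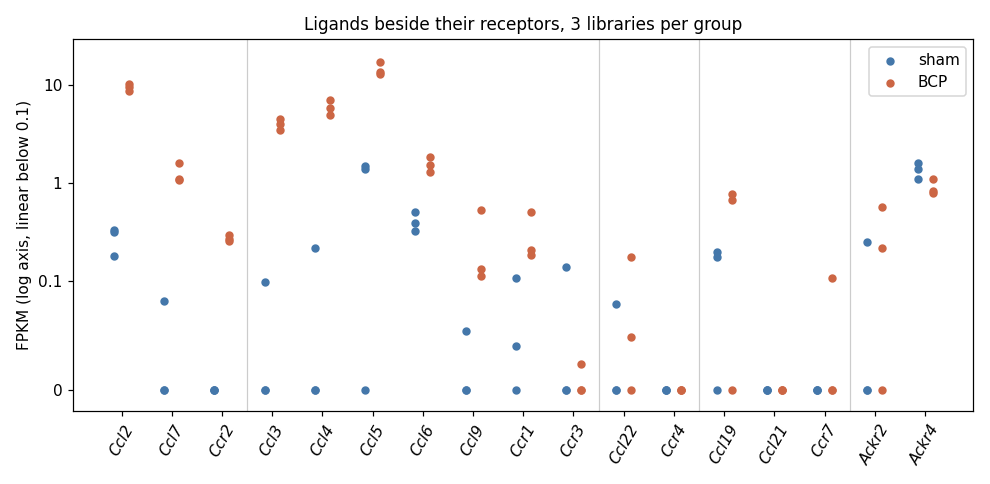
FPKM of ligands and receptors on a y axis that is logarithmic above 0.1 and linear below it, with 1 point per library for the 3 sham (blue) and the 3 BCP (orange) libraries; vertical lines set off Ccr2, Ccr1 with Ccr3, Ccr4, and Ccr7, each after ligands that bind them, and the scavengers Ackr2 and Ackr4. Ccr4 is at 0 in every library, Ccr2 is above 0 in the BCP libraries from 1 count each, and Ackr4 is near 1 FPKM in both groups.

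A list of 28 genes that act downstream of chemokine receptors was read from the same fit. Of its 27 tested genes 13 were called higher and 0 lower, with a median log2FC of 0.73 against -0.01 over all tested genes. Among the called genes with the smallest p-values were Pik3cg and Pik3r5, the catalytic and a regulatory subunit of the phosphoinositide kinase that G protein-coupled receptors activate, and the Src family kinase Fgr. Their log2FC by edgeR was 1.91 ± 0.09 for Pik3cg (adjusted p = 3.62e-12), 2.44 ± 0.15 for Pik3r5 (2.96e-10) and 3.07 ± 0.16 for Fgr (2.81e-11, SE in each case). The 4 with the most counts were not called, namely Gnb1 (log2FC -0.02), Rhoa (0.26), Gnai2 (0.30) and Adrbk1 (0.01), which encode a G protein beta subunit, a small GTPase, an inhibitory G protein alpha subunit and a receptor kinase. Rhoa (edgeR, adjusted p = 0.000593) and Gnai2 (edgeR, adjusted p = 0.000285) passed the adjusted p but not the 2-fold threshold, and were higher in every BCP library.

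Genes that induce CC ligands or control their transcription formed a list of 18 names with 20 rows, because Tnf and Tnfsf11 each had 2 rows. Of 15 tested rows 9 were called higher and 0 lower, with a median log2FC of 1.40. Some of the called rows, among them Ifng and the tested row of Tnf, had fewer than 3 sham libraries at the minimum of the filter. They belong to the class of genes of which 41.6% were called higher, so the count of calls is no support. Ifng, the gene of interferon gamma, had no sham count and 18, 25 and 18 BCP counts, at least 22.0-fold higher against a floor of 3 counts over the sham group, and the lower limit of the counting interval of the ratio was 17.4. Tnf, a cytokine that induces Ccl2 and Ccl5 in many cells, had 4, 6 and 4 counts against 31, 59 and 64 counts in its tested row (log2FC 3.53 ± 0.38 SE, edgeR, adjusted p = 5.36e-07). Reads of Tnf could have been split between its rows. The kappa-B subunit Nfkb2 (log2FC 1.47 ± 0.12 SE, edgeR, adjusted p = 1.78e-08), Stat6 (1.43), Cebpb (1.90) and Irf1 (3.15) were also called. Nfkb1 (log2FC 0.92) and Jun (log2FC 0.18, edgeR, adjusted p = 0.0391) passed the adjusted p but not the 2-fold threshold. Sham library 3 was the lowest library for Irf1 (190, 170 and 111 sham counts) and for the summed CPM of the ligands.

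Marker lists of cell types are given beside the ligands, with sums in the sham and then in the BCP libraries. Of 12 microglial markers 5 were called higher, among them Aif1, Cx3cr1 and Csf1r, and the list summed to 388 to 472 CPM in the sham libraries and 901 to 1056 CPM in the BCP libraries. Of 10 T cell markers 8 were tested and all 8 were called higher, with sums of 6.08 to 6.77 CPM and 53.0 to 61.0 CPM, and Cd3d, Cd5 and Cd8b were at 0 in every sham library. Of 8 rows of natural killer cell markers 5 were tested and all 5 called higher, with sums of 0.305 to 1.19 CPM and 17.1 to 30.6 CPM. Of the tested markers, 7 of 8 for T cells and 5 of 5 for natural killer cells had fewer than 3 sham libraries at the minimum of the filter, the class of genes of which 41.6% were called higher, so their counts of calls are no support. Of 8 neutrophil markers 2 were tested and both called higher, with sums of 8.84 to 10.2 CPM and 31.3 to 34.4 CPM. Of these 2, S100a8 was also of that class, so its call is no support either. Border macrophage and monocyte markers, a list that includes Ccr2, had 0 of 5 tested genes called, with sums of 204 to 211 CPM and 201 to 238 CPM. Astrocyte markers had 0 of 6 tested genes called, 1 higher and 2 lower on adjusted p alone, with sums of 4035 to 4313 CPM and 5834 to 7591 CPM. Dendritic cell markers had 0 of 2 tested genes called, with sums of 45.2 to 50.03 CPM and 45.1 to 47.3 CPM. Oligodendrocyte markers, with sums of 37503 to 42804 CPM and 26963 to 29985 CPM, were abundant, and 0 of 6 were called at the 2-fold threshold, but all 6 were lower on adjusted p alone and in every BCP library. Neuronal markers, with sums of 3636 to 3876 CPM and 3400 to 3667 CPM, had 0 of 8 called and 3 lower on adjusted p alone. Markers of meninges and fibroblasts (42.4 to 74.3 CPM and 61.3 to 115 CPM, 0 of 4 tested called) and of epithelial tumor cells (1.14 to 2.09 CPM and 1.999 to 3.04 CPM, 0 of 1 tested called) had lower sums than the neuronal list. The part of these cells in the ligand levels was not tested. The ratio of the mean sums was 16.7 for the 10 ligands, 2.19 for microglial, 9.03 for T cell, 40.0 for natural killer cell and 3.45 for neutrophil markers. Such a ratio follows the most abundant genes of a list and does not rank the lists by gene. In the same order, the median log2FC of the tested genes was 5.02, 0.65, 5.80, 5.60 and 3.45.

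Of 26 genes other than CC ligands within 100 kb of a member, 13 were tested and 0 were called by edgeR or DESeq2, with a median log2FC of -0.10. With 6.35% of all tested genes called higher and 0.107% lower, a count of 0 among 13 is near the background and is not a result about these genes. In each tool 5 had an unadjusted p under 0.05, and in edgeR all 5 were lower in BCP rats and also passed the adjusted p, as did 12.1% of all tested genes in that direction. Cx3cl1, the CX3C ligand fractalkine beside Ccl22, had 1366, 1442 and 1638 sham counts and 1362, 1523 and 1462 BCP counts (log2FC 0.08 ± 0.05 SE, edgeR, adjusted p = 0.274). Taf15, the only tested neighbor of the Ccl5 group, had a log2FC of 0.00 ± 0.46 (SE). The tested neighbors other than Taf15 lie beside Ccl19 and Ccl22, so the chromosome 10 groups had 1 tested neighbor for comparison.

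**Figure D5:**
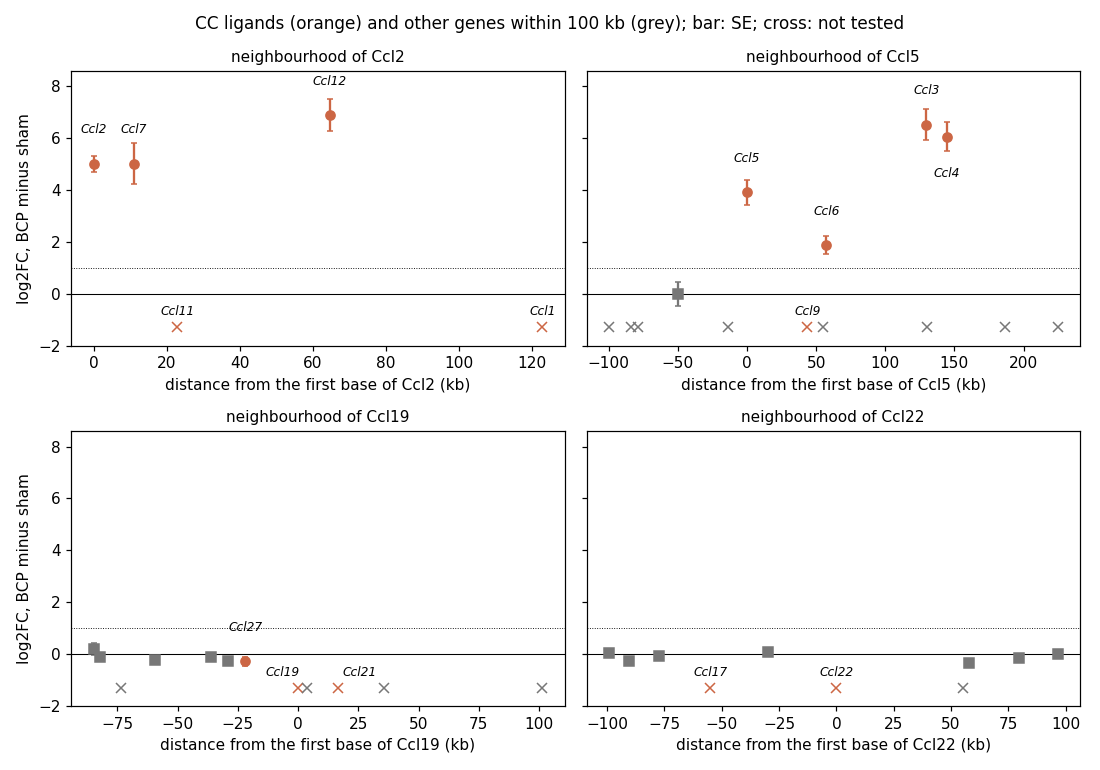
Log2FC by edgeR, BCP minus sham, on the y axis against the distance in kb from the first base of Ccl2, Ccl5, Ccl19 and Ccl22 on the x axes; orange marks CC ligands, grey marks other genes within 100 kb of a member, bars are SE, the dotted line marks 2-fold, and crosses mark genes that were not tested, set at an arbitrary height. The tested ligands on chromosome 10 lie between 1.88 and 6.89, and the grey genes lie near 0.

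Of the lncRNA transcripts, 2 lay within 10 kb of a ligand. NONRATT022202.2, whose span overlaps Ccl19 and Ccl21, had 2, 1 and 0 sham counts and no BCP count, too few to test. NONRATT014033.2, 7457 bases from Ccl22, had 10, 14 and 19 counts against 13, 12 and 12 counts, with a log2FC of -0.06 ± 0.33 (SE, edgeR, adjusted p = 0.968). None was within 10 kb of the ligands on chromosome 10 that were called. Of 12157 tested lncRNAs 1.14% were called higher and 0.0740% lower, and of the 2 near a ligand 0 were called, with 0 at an unadjusted p under 0.05 in edgeR and in DESeq2.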

How the data were processed

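RNA-seq of 3 sham and 3 BCP libraries was analysed from the deposited tables of genes and lncRNA transcripts. The authors cleaned reads with Seqtk, aligned these with HISAT2 2.0.4 to the Rnor_6.0 build and calculated FPKM with StringTie 1.3.0 against a reference annotation, and they deposited FPKM values and raw counts per library. The counting program, whether it used strand, and how multiply mapped reads were handled are not given in the sources used here, and this can matter for tandem paralogs. Groups and replicate numbers came from the labels.

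Genes and lncRNAs were fitted separately in edgeR 4.0.16 (R 4.3.3) with TMM normalization, filterByExpr, a robust quasi-likelihood fit on condition and Benjamini-Hochberg adjustment. The filter left out 5737 genes that had counts. TMM factors for genes were 0.982 to 1.02, and the biological coefficient of variation was 7.72% for genes and 33.4% for lncRNAs. Library totals were 11779485 to 15004290 counts, and floors of 3 counts and exact 95% intervals of ratios cover counting error only, since PCR duplicates are not independent molecules. Levels of different genes were compared in FPKM. DESeq2 1.42.0, other filters, normalizations and thresholds, a replicate block and omission of each library were alternatives. Counts were also simulated for 14908 genes in this comparison and read at an adjusted p under 0.05 alone, without the 2-fold threshold of a call. There edgeR recovered 80% of genes changed 2-fold and 99% of those changed 4-fold. Of the genes that passed, 5.29% were unchanged genes. For 12157 lncRNAs simulated in the same way, edgeR recovered 12% of those changed 2-fold and 63% of those changed 4-fold. Of the lncRNAs that passed, 9.64% were unchanged. A 2-fold change of a lncRNA would thus mostly have been missed.

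The ligands and gene lists were chosen with earlier results of these data known. All 10 ligands are named, and from the other lists the 4 genes with the most counts and the 4 called genes with the smallest p-values, the receptors that bind the ligands, and for Ccl5, Ccl2 and Ccl4, the ligands highest in FPKM, the 3 genes most correlated. A few genes covered by the rule are not reported here, although the counts over lists include these. A few other genes were named after their values were seen. Promoter sequences came from RefSeq (GRCr8), and windows were aligned locally (match 2, mismatch -3, gap open -5, gap extension -2). Python 3.11.15 with matplotlib 3.10.9 drew the figures.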

Additional observations from a re-analysis of the deposited data

How the results depend on the processing

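The count of 6 ligands called stayed at 6 with DESeq2, with upper-quartile factors, library size only or DESeq2 size factors, on adjusted p alone, and with each library left out in turn (lowest 6, highest 6). It was 7 without the filter on low counts, where Ccl9 was added, and 5 in the test against a 2-fold change, where Ccl6 was lost. Of 84 alternative settings for single ligands, 0 reversed direction and 1 lost its call. The setting of adjusted p alone reuses the main fit, in which all 6 had passed, so it could change neither count, direction nor call. The test against a 2-fold change reuses the fitted log2FC, so it could not change direction. The log2FC ranged from 4.81 to 5.15 for Ccl2, 6.04 to 8.36 for Ccl3, 5.51 to 8.65 for Ccl4, 3.30 to 4.37 for Ccl5, 1.74 to 2.05 for Ccl6 and 4.54 to 6.83 for Ccl7. Requiring at least 10 counts in every library left no ligand to test.

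Of all genes 962 were called, 548 in the test against a 2-fold change and 4157 on adjusted p alone, of which 2352 were higher and 1805 lower, against 946 and 16 with the fold threshold. With 1 library left out the count ranged from 898 to 1048. The count of receptors was 2, and it was 4 without the filter, where Ccr1 and Ccr6 were added, 1 with at least 10 counts in every library, where Ccrl2 was not tested, and 1 in the test against a 2-fold change (Ccrl2 adjusted p = 0.263). Of the neighboring genes 5 were lower on adjusted p alone, among them Coq9, Pllp, Arl2bp and Il11ra1.

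With the replicate number as a block, 6 ligands, 2 receptors and 923 genes were called. The numbers are not known to mark shared animals or days. Deviations of same-numbered libraries from their group means correlated at -0.105, 0.0439 and -0.0353, and not every library correlated best with its own number. CPM divided by gene length was not run, because the gene table lists no length. Depth limits the ratios of Ccl3, Ccl4, Ccl7, Ccl9, Ccl12 and Ccl22, each of which rests on 1 or 2 sham counts.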

Other observations

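Several other CC ligands and receptors had too few counts for the fit. Counts are given for libraries 1, 2 and 3 of each group in order. Ccl20, which attracts cells that carry Ccr6, had 0, 1 and 2 sham counts and 6, 2 and 0 BCP counts. Ccl24, an eosinophil attractant, had 2, 0 and 4 sham counts and no BCP count. Ccr6 had no sham count and 0, 7 and 6 BCP counts. Ccr10, the receptor of Ccl27, had 10, 7 and 6 counts against 8, 10 and 7 counts, and Ackr2, a scavenger of inflammatory CC ligands, had 0, 0 and 5 counts against 9, 4 and 0 counts. The groups overlapped for each of these 5 genes.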
